A study of Mus musculus with 5 samples.

Results

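The unfolded protein response and the integrated stress response were examined in 37 named genes of 12446 tested, on 5 one-colour Affymetrix expression arrays. The genes were listed by name, with earlier results of these data known, so their counts are a description. Each was read from its brightest probe set, that is the set of array probes for the gene with the highest mean signal over the 5 arrays, among probe sets annotated to a single gene. All 37 had a probe set, and the brightest probe set of all 37 passed the filter on dim values. The genes were divided by role into 7 sensors, transcription factors and phosphatase subunits, 13 genes best known as ATF6 targets, 9 best known as XBP1 targets and 8 of the ATF4 pathway. Many ER chaperone and degradation genes answer to both ATF6 and XBP1, so the division is one of emphasis.

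When unfolded protein gathers in the endoplasmic reticulum (ER), IRE1 (encoded by Ern1) splices Xbp1 mRNA into the form that encodes an active factor, ATF6 is cut free from the membrane as a transcription factor, and the kinase PERK (Eif2ak3) phosphorylates eIF2 alpha. That phosphorylation slows translation in general and favours translation of ATF4, which also serves kinases that sense amino acid shortage, heme shortage and double-stranded RNA. In activated T cells the same pathways accompany growth of the secretory apparatus and high amino acid use. Splicing of Xbp1, cleavage of ATF6 and phosphorylation of eIF2 alpha were not measured by these arrays, which report mRNA.

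The 2 groups were CD8 T cells of one specificity. The G9C8 clone, a cytotoxic line that recognises an insulin B chain peptide, was represented by 3 separately frozen vials of 1 clone. NOD.G9C8 cells were grown from spleens of 2 transgenic mice on the NOD/LtJ background, aged 4 to 8 weeks. Stimulation of both lasted 3 days, with 10 µg/ml of the peptide, and a rest of 2 days in IL2 at 5 IU/ml followed. No unstimulated cells are among the samples, so the values compare 2 sources of activated cells and not stressed with unstressed ones. The labels name no sort before RNA extraction. A difference is the clone mean minus the transgenic mean of log2(signal + 20), and a gene is called at an adjusted p under 0.05 (limma, Benjamini-Hochberg over all genes tested).

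T cell markers were bright in all 5 cultures (summed signal of 6 markers 45180 to 52115 in clone and 62695 to 69499 in transgenic cells), with 4 of 6 lower in clone. The summed signals of myeloid, dendritic, plasma, B, NK and CD4 T cell markers were higher in the transgenic cultures, and those of erythroid markers overlapped. Not every marker followed the sum of its list. The NK markers summed to 1594 and 1755 against 141.2 to 181.3, of which Eomes alone gave 1516 and 1700 against 62.8 to 90.3. Ncr1 had the higher mean in clone cells (83.2 against 66.9). Cd4 and Cd40lg were both below the filter. Of the dendritic markers Itgax was lower, while Flt3 and Siglech were not called. The 6 myeloid markers summed to 5060 and 7579 in transgenic and 1333 to 1713 in clone cells, with 4 lower in clone. Lyz2 alone gave 3497 and 5549 in transgenic and 237.1 to 326.9 in clone cells. Cd68 was higher on every clone array (569.8, 827.5 and 627.2 against 398.9 and 546.0) but was not called (0.50). The 6 plasma cell markers, of interest because plasma cells carry much Xbp1, summed to 2545 and 2823 against 1723 to 2080, with Sdc1 and Pou2af1 lower in clone and Mzb1 (0.02) and Tnfrsf13b (-0.18) not called. Jchain (103.1 and 105.7 against 40.2 to 70.4) and Tnfrsf17 (73.2 and 93.5 against 18.7 to 142.3) were dimmer on average than the filter level of 88.2. The 5 B cell markers with a probe set summed to 1079 and 1172 against 378.1 to 656.6, of which Cd79b alone gave 654.5 and 594.0 against 31.5, 2.7 and 46.0. Cd79b was lower, Ms4a1 (-0.24) and Pax5 (0.16) were not called, and the others were below the filter. The clone signals of Sdc1 (40.3 to 47.0), Pou2af1 (11.5 to 32.4) and Cd79b lay under the filter level, as did those of the myeloid marker Cd14 (31.9 to 57.2). These genes passed the filter through their transgenic signals. The part of these other cells in the differences below was not tested, and in such mixed RNA fewer cells of a type cannot be told apart from less RNA per cell.

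The stress genes lay mostly on the clone side. Of the 37, 19 were called higher in clone (51.4%, against 22% of all genes tested), 3 were lower (8.11%, against 21.7%) and 15 were not called, so that 59.5% were called against a background of 43.8%. The clone arrays lay wholly above the transgenic arrays for 25 genes, a relation seen for 31.9% of all genes, and wholly below for 4, against 32.6%. The median difference was 0.33, beside -0.01 over all genes. The medians of the 3 arms were of unlike size, at 0.94 for the ATF4 genes, 0.34 for the ATF6 genes and 0.03 for the XBP1 genes. The difference between arms was not tested, since genes are not replicates. When the first transgenic array was left out, 12 of the 37 were higher (32.4%), and the share of all genes was also smaller, 15.2%.

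**Figure D1:**
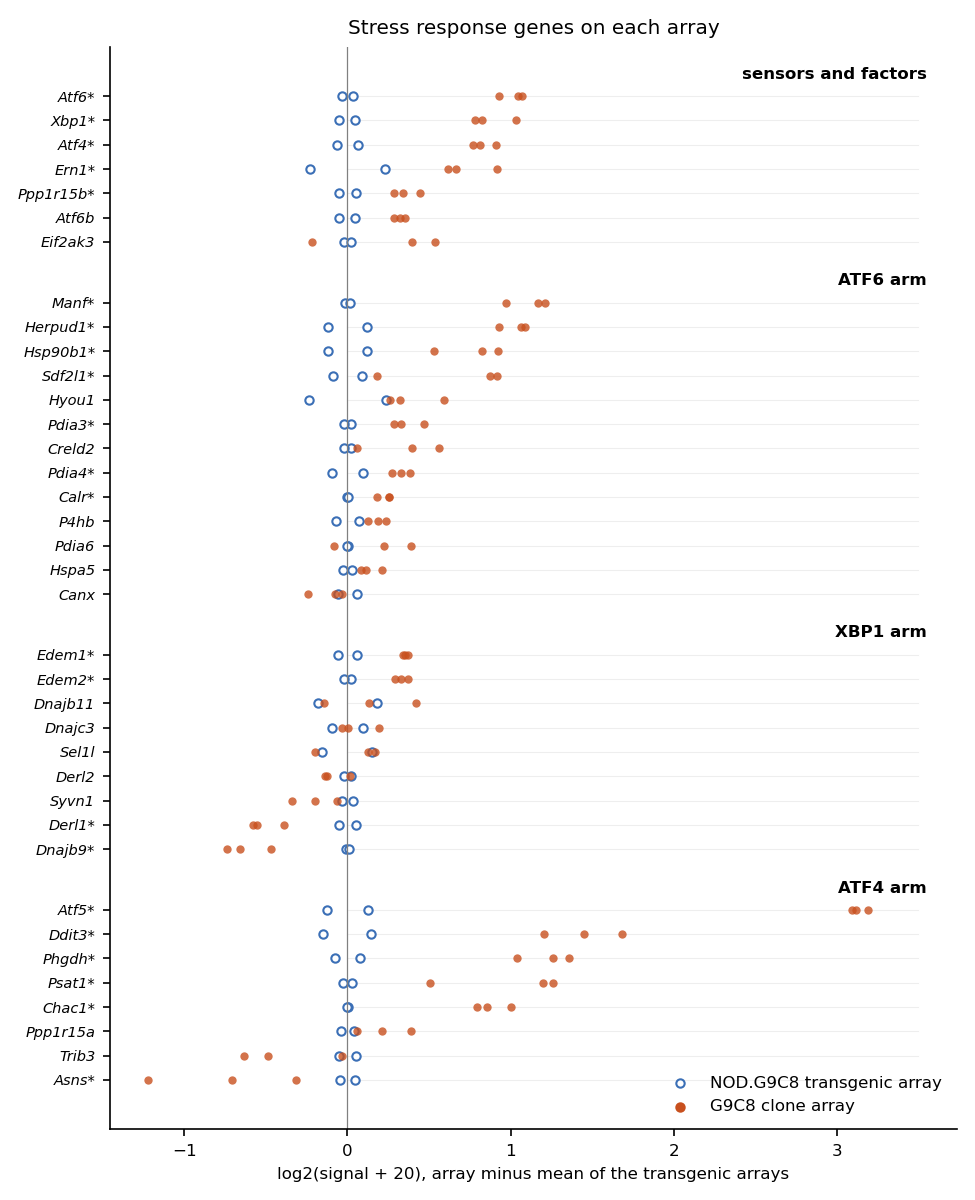
Each row is a gene, each point an array, placed at its log2(signal + 20) minus the mean of the transgenic arrays. Open circles are the 2 transgenic and filled circles the 3 clone arrays, and an asterisk marks a called gene. Atf5 stands farthest to the right, near 3, and Asns, Dnajb9 and Derl1 lie on the left.

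Transcripts of the sensors and factors themselves were higher in clone in 5 of 7 (71.4%, against 22% of all genes tested) and not called in 2. Their median difference was 0.73. Xbp1 gave signals of 3951 and 4232 in transgenic cells and 8381, 7050 and 7248 in clone cells, so that every clone array lay well above both transgenic ones. Its difference was 0.88 (SE 0.10, adjusted p = 0.000195), a 1.85-fold ratio of means. Atf6, the membrane-bound factor of its arm, gave 405.9 and 385.8 against 837.2, 852.2 and 771.6, a difference of 1.01 (SE 0.12, adjusted p = 0.000259). Atf4 gave 3532 and 3855 against 6944, 6483 and 6294, a difference of 0.83 (SE 0.09, adjusted p = 0.00014). By their brightest probe sets the 3 factors thus differed by a similar amount at the mRNA level, 1.78-fold to 2.07-fold. For each the clone arrays lay wholly above the transgenic arrays, as for 31.9% of all genes tested. The dimmer tested probe sets of all 3 had larger differences, up to 1.45 for Xbp1, 1.52 for Atf6 and 1.08 for Atf4.

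The kinase sensors were less uniform. Ern1 gave 416.9 and 297.8 in transgenic and 682.4, 550.9 and 572.2 in clone cells, and was higher by 0.73 (SE 0.18, adjusted p = 0.00963), although the call ended without the second transgenic array (0.50, adjusted p = 0.0899) and with the mean over its probe sets (0.59, adjusted p = 0.122). Eif2ak3 gave 2644 and 2720 against 2308, 3892 and 3540, where the first clone array lay below both transgenic arrays and the other 2 above. That difference of 0.24 (95% confidence interval -0.21 to 0.69) was not called. It was called without the first clone array (0.47, adjusted p = 0.0101) and with the mean over probe sets (0.96, adjusted p = 0.0308). Atf6b, the ATF6 paralog, had clone arrays of 452.6 to 475.4 above 381.4 and 355.2, with a difference of 0.32 that missed the threshold (adjusted p = 0.084) and was past it under quantile normalization (0.43, adjusted p = 0.0271). Ppp1r15b, the constitutive subunit that guides the phosphatase to eIF2 alpha, was higher by 0.36 (2691 ± 154 against 2098 ± 108, adjusted p = 0.0155), a call lost without the first transgenic array (adjusted p = 0.12) and with the mean over probe sets (0.13, adjusted p = 0.504).

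The 13 ATF6 targets are mainly chaperones and folding enzymes of the ER lumen. Of these, 7 were higher (53.8%, against 22% of all genes tested), 6 were not called and 0 were lower (against 21.7%). The count of higher genes was 3 without the first transgenic array and 4 without the second, or without clone array 1 or 3. The share of all genes called higher was also smaller in each of these. Manf, a secreted ER stress protein, led with 2860 and 2933 in transgenic cells against 6528, 5710 and 6725 in clone, a difference of 1.12 (SE 0.10, adjusted p = 4.42e-05). Herpud1, a membrane protein of ER-associated degradation, gave 1110 and 938.9 against 2193, 1960 and 2154 (1.03, SE 0.11, adjusted p = 0.000159). Manf and Herpud1 were the 2 of the 13 with a called difference of 2-fold or more. Hsp90b1, the ER chaperone GRP94, gave 4965 and 5859 against 10239, 7814 and 9560, a difference of 0.76 (SE 0.13, adjusted p = 0.00172). Its other probe set gave 3311 in transgenic and 3800 in clone cells and was not called (0.19, adjusted p = 0.196 over probe sets).

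Promoters of some of these genes carry a known element. The ER stress response element (ERSE) consists of CCAAT and CCACG with 9 bases between them, and ATF6 binds at CCACG beside the factor NF-Y at CCAAT. The element was searched on both strands of RefSeq promoter windows of GRCm38.p6, from 250 bases before each start to 50 after it. It was present in 8 of the 32 genes that had a window (25%), and in 0.119% of all 32851 windows. The first share counts genes and the second counts windows, of which a gene can have several. It was first described in promoters of this family, so its presence is not an independent result. It was in 6 of the 11 ATF6-group genes with a window. The 9 sites are shown so that their spacers and positions can be compared, read along the element with CCAAT and CCACG in capitals, with positions counted back from the base before the start, which is -1.

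Hspa5, bases -65 to -47: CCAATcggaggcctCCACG
Hsp90b1, bases -212 to -194: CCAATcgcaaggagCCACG
Hsp90b1, bases -107 to -89: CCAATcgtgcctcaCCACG
Calr, bases -162 to -144: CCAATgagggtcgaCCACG
Canx, bases -145 to -127: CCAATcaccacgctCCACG
Creld2, bases -126 to -108: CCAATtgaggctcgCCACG
Pdia6, bases -98 to -80: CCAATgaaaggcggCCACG
Dnajc3, bases -105 to -87: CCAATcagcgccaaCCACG
Syvn1, bases -44 to -26: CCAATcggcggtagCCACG

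Apart from Dnajc3 and Syvn1, which are in the XBP1 group, these are ATF6-group genes. Of the 8, Hsp90b1 and Calr were called, both higher, the other 6 were not called, and the median difference was 0.16. Of all genes tested, 22% were called higher. A related element, ERSE-II (ATTGG, 1 base, CCACG), was found in Herpud1 and Dnajb11 and in 0.0365% of windows.

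Stretches of 3 of these promoters are given with the elements in capitals, for the genes of this arm with an upstream element and the largest differences. Herpud1 (chr8:94386287-94386417, plus strand) holds ERSE-II and, ahead of it, a core of the ATF4 element described below. Hsp90b1 (chr10:86705503-86705686, minus strand) holds 2 ERSE matches in opposite orientation. Creld2 (chr15:88819490-88819568, plus strand) holds 1, on the strand opposite to the gene.

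Herpud1: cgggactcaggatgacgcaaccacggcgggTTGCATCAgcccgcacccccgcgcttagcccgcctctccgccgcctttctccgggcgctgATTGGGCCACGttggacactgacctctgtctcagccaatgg
Hsp90b1: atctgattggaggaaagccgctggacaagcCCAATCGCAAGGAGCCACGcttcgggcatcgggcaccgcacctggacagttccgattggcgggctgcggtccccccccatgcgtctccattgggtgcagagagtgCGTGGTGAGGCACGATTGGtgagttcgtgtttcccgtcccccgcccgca
Creld2: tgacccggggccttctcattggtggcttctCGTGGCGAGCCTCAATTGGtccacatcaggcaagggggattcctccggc

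Hspa5, the chaperone BiP and the usual marker of ER stress, differed little by its brightest probe set. It gave 7368 and 7666 in transgenic and 8708, 8126 and 7969 in clone cells, where the clone arrays lay narrowly on top. The difference of 0.14 had a 95% confidence interval of -0.05 to 0.32 (adjusted p = 0.215), and under quantile normalization it was -0.02. A second, dimmer Hspa5 probe set of the _s_at type, which can bind several transcripts, gave 3372 in transgenic and 5814 in clone cells and was called higher (0.77, adjusted p = 0.00127 over probe sets), and the remaining probe set was not called (0.20). With the mean over the 3 probe sets Hspa5 was higher (0.37, adjusted p = 0.0126).

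Among the other ATF6 targets, 4 were called higher. Sdf2l1, a partner of ER DnaJ proteins, gave 732.8 and 830.4 against 1449, 886.1 and 1491, with the second clone array just above the transgenic arrays (0.66, SE 0.21, adjusted p = 0.0356). Pdia3, a disulfide isomerase that works with calnexin and calreticulin, was higher by 0.36 (8208 ± 551 against 6385 ± 149, adjusted p = 0.01). Pdia4, another isomerase, differed by 0.33 (adjusted p = 0.0484) and Calr, the lectin chaperone calreticulin, by 0.23 (adjusted p = 0.0438). These 4 calls did not hold without certain arrays. Those of Sdf2l1 and Calr ended without the first or second transgenic array or clone array 1 or 3 (adjusted p = 0.0868 to 0.178 and 0.0941 to 0.177), that of Pdia3 without the first (adjusted p = 0.0527) or second transgenic array (adjusted p = 0.0764), and that of Pdia4 without any 1 of the 5 (adjusted p = 0.068 to 0.283).

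The 6 genes not called included Canx, the membrane lectin chaperone calnexin, which had the 1 negative difference of the 13 (6546 ± 494 in clone against 7088 ± 410, -0.12). Read without _x_at and _s_at probe sets, it was at 0.37 (adjusted p = 0.0819), and under quantile normalization it was -0.28 and called lower (adjusted p = 0.0269). P4hb, the founding disulfide isomerase, differed by 0.18, Pdia6 by 0.18, the chaperone gene Hyou1 by 0.39 (adjusted p = 0.0881) and Creld2 by 0.34 (adjusted p = 0.151). The second clone array was the lowest of the 3 clone arrays for 10 of the 13 ATF6 targets, 76.9%, against 34.7% of all genes tested. Without it 8 of the 13 were higher, with Pdia6 (0.31, adjusted p = 0.0418) and Creld2 (0.48, adjusted p = 0.0312) called and Pdia4 not (adjusted p = 0.07). Hyou1 was called without the second transgenic array (0.63, adjusted p = 0.0304).

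**Figure D2:**
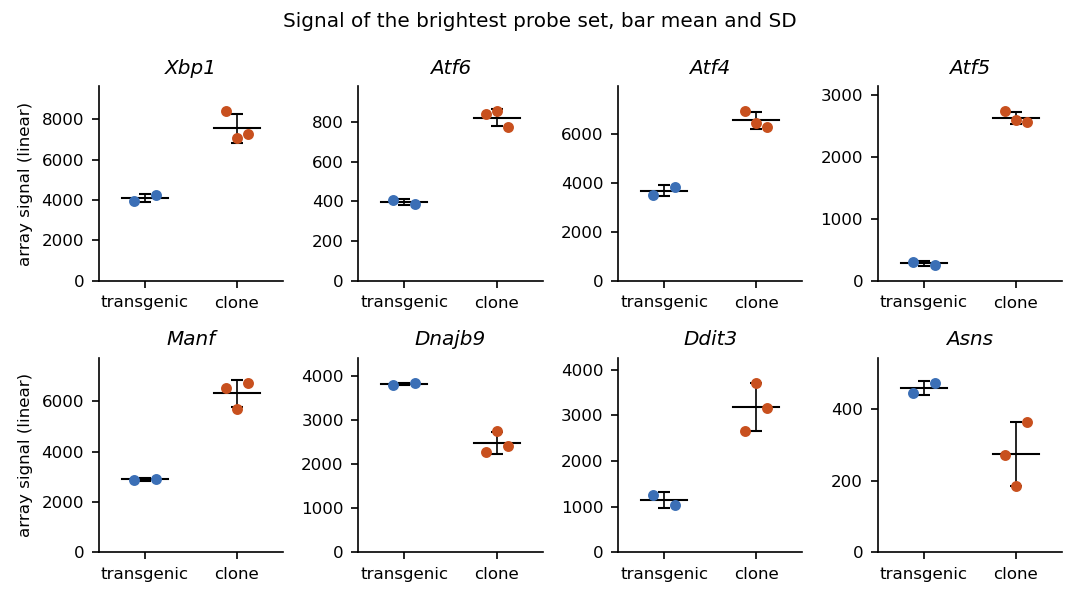
Linear signals of 8 genes, 1 point per array, with the mean and SD of 2 transgenic and 3 clone arrays. Xbp1, Atf6 and Atf4 show clone means at about 1.8 to 2.1 times the transgenic mean, and Atf5 a clone mean at 9.29 times, while Dnajb9 and Asns are lower in clone.

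XBP1 targets were called about as often as all genes. Of 9 genes of ER-associated degradation and ER DnaJ cochaperones, 2 were higher (22.2%, against 22% of all genes), 2 lower (22.2%, against 21.7%) and 5 not called, and the median of 0.03 changed sign under 5 alternatives. Dnajb9 (ERdj4), a cochaperone that restrains IRE1 and is among the targets most dependent on XBP1, was lower in clone, at 3817 and 3854 in transgenic cells against 2289, 2771 and 2425, with every clone array below (-0.62, SE 0.10, adjusted p = 0.00156). That call held in all 16 alternatives. Derl1, a channel component that moves proteins out of the ER, gave 5483 and 5103 against 3596, 4029 and 3542 (-0.51, SE 0.09, adjusted p = 0.0026). The call rested on 1 probe set of the _s_at type, as the other 3 for the gene were not called (-0.09, 0.16 and 0.21).

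Edem1 and Edem2, lectin-like proteins that hand misfolded glycoproteins to degradation, were the 2 higher genes. Edem1 gave 4061 and 4396 against 5356, 5396 and 5462 (0.35, SE 0.08, adjusted p = 0.00813), and Edem2 gave 861.7 and 836.9 against 1046, 1107 and 1073 (0.33, SE 0.10, adjusted p = 0.0289). The clone arrays stood together and above the transgenic arrays in both. The Edem1 call ended without the first transgenic array (adjusted p = 0.0866), and that of Edem2 without any 1 of the 5 arrays (adjusted p = 0.0514 to 0.141).

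Sel1l and Syvn1, the adaptor and the ubiquitin ligase of the HRD1 complex, were not called, with differences of 0.03 (95% confidence interval -0.31 to 0.37) and -0.20 (-0.46 to 0.06). Nor were Derl2 (-0.08, -0.30 to 0.14), whose other probe set was called lower (-0.63), and the cochaperone gene Dnajb11 (0.14, -0.28 to 0.55). All dimmer Sel1l probe sets had negative differences, from -0.06 to -0.59, and 1 was called lower (-0.50, adjusted p = 0.0199 over probe sets). The other Syvn1 probe set was positive and not called (0.31). Dnajc3, the cochaperone P58IPK that inhibits eIF2 alpha kinases, was the least settled. Its brightest probe set gave 2832 and 2476 against 2588, 3031 and 2649, overlapping groups with a difference of 0.05. A second probe set of nearly the same mean brightness gave 3705 in transgenic and 1931 in clone cells (-0.94, adjusted p = 0.000173 over probe sets), and the other 3 were called lower too (-0.49 to -1.34). With the mean over probe sets Dnajc3 was lower by a difference of -0.77 (adjusted p = 0.000849). The UPRE core TGACGTGG, which XBP1 binds, was in no window of the 32 genes and in 0.676% of all windows.

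**Figure D3:**
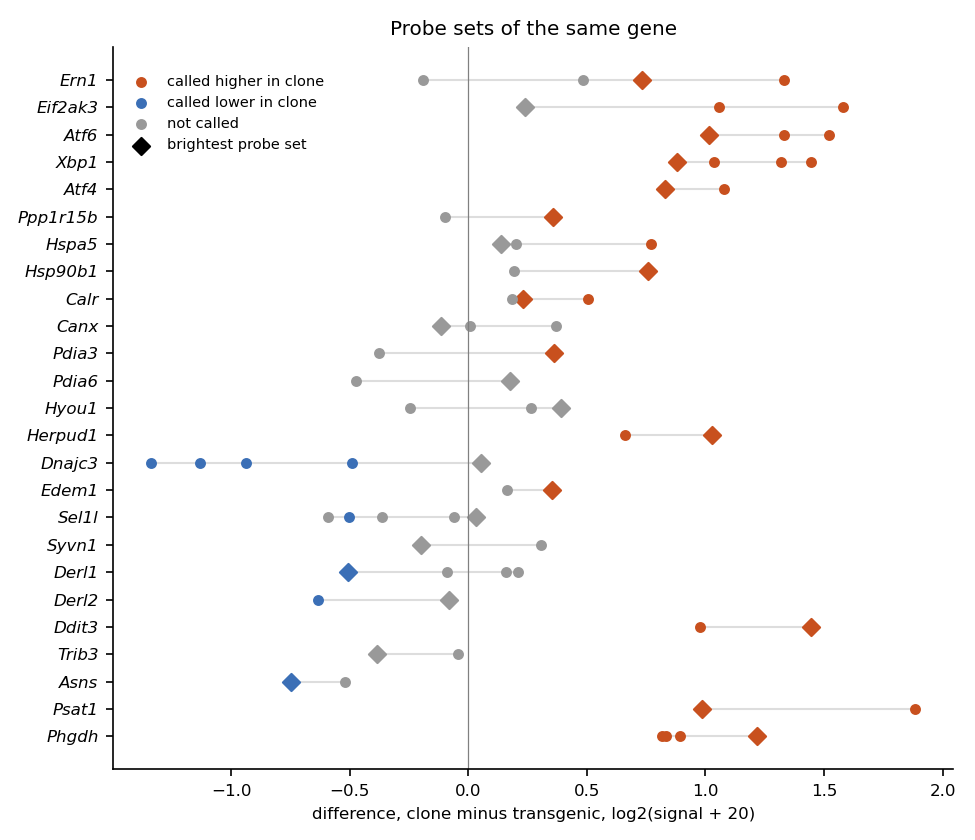
Each point is 1 probe set of a gene with several past the filter, at its difference on the log2(signal + 20) scale, diamonds marking the brightest. The 4 dimmer Dnajc3 probe sets lie between -1.34 and -0.49, apart from the diamond at 0.05, whereas all 4 of Xbp1 lie between 0.88 and 1.45.

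The 37 genes have 86 probe sets, of which 82 passed the filter and were tested singly. This fit over 22322 probe sets called 43.6% of them. Of 25 genes with several tested probe sets, 12 had the same call on all and 13 did not, but no gene had probe sets called in opposite directions. All tested probe sets of Xbp1 (4), Atf6 (3), Atf4 (2), Ddit3 (2), Herpud1 (2), Psat1 (2) and Phgdh (4) were higher in clone. For Xbp1 the brightest probe set had the smallest difference, 0.88, and the others 1.04 to 1.45. Eif2ak3 was called by its 2 dimmer probe sets (1.06 and 1.58) and not by the brightest.

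ATF4-pathway genes held both the largest positive and the largest negative difference of the 37. Of the 8, 5 were higher (62.5%, against 22% of all genes tested), 1 was lower (12.5%, against 21.7%) and 2 were not called. Atf5, a factor of the ATF4 family linked to mitochondrial and proteotoxic stress, gave 309.7 and 256.0 in transgenic cells and 2732, 2592 and 2558 in clone cells. The ratio of means was 9.29 and the difference 3.13 (SE 0.12, adjusted p = 5.05e-07), and the arrays within each group lay close together. In the alternatives it ranged from 3.00 without the second transgenic array to 3.26 without the first. Ddit3, the stress-induced factor CHOP, gave 1267 and 1030 against 2662, 3712 and 3162 (1.45, SE 0.15, adjusted p = 0.00013).

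Of the 3 enzymes of serine synthesis, Phgdh and Psat1 were higher, and Psph, the last, was not called (2053 and 1963 against 2271, 2103 and 2214, a difference of 0.13). Phgdh, which diverts a glycolytic intermediate into that pathway, gave 1840 and 2046 against 4669, 4002 and 5010 (1.22, SE 0.11, adjusted p = 7.31e-05); all 4 of its probe sets are of the _x_at type, which can bind other transcripts. Psat1, the next enzyme, gave 1267 and 1319 against 2987, 1841 and 3122 (0.99, SE 0.21, adjusted p = 0.00504), with the second clone array well below the other 2 yet above the transgenic arrays. Chac1, which degrades glutathione, was dim, at 138.3 and 137.7 against 253.9, 266.4 and 296.1 (0.88, SE 0.18, adjusted p = 0.0041).

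Asparagine synthetase went the other way. Asns, a classic ATF4 target, gave 443.0 and 471.7 in transgenic and 271.6, 184.8 and 364.1 in clone cells, with all clone arrays below (-0.75, SE 0.25, adjusted p = 0.0389). The call ended without any 1 array other than the third clone array (adjusted p = 0.0531 to 0.165) and under quantile normalization (-0.63, adjusted p = 0.0781), while the difference was negative in all 16 alternatives. Trib3, a pseudokinase that curbs ATF4 and CHOP, gave 1014 and 1093 against 744.3, 670.7 and 1027 and was not called (-0.39, -0.79 to 0.01); without the third clone array, the one that overlapped, it was -0.56 and lower (adjusted p = 0.0111). Ppp1r15a (GADD34), the inducible phosphatase subunit, had clone arrays just above the transgenic ones without a call (1759 ± 207 against 1500 ± 63.1, 0.22, -0.05 to 0.49).

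The C/EBP-ATF response element, to which ATF4 binds with a C/EBP partner, was searched by its core TGATGNAA on both strands. It was in the windows of Asns, Chac1, Trib3 and Herpud1, 12.5% of the 32 genes, and in 3.97% of all windows, again a count of genes beside a count of windows. Of these 4 genes, 2 were higher, 1 lower and 1 not called, beside 22% higher and 21.7% lower of all genes tested. The stretches for Chac1 (chr2:119351019-119351086, plus strand) and Asns (chr6:7693210-7693262, minus strand) are shown because the 2 genes share the core and were called in opposite directions.

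Chac1: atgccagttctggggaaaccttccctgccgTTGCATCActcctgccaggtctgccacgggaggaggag
Asns: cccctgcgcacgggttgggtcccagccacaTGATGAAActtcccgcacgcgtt

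The core stands on the strand of the gene in Asns and on the other strand in Chac1.

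A further list of known ATF4 targets held factors, amino acid transporters, aminoacyl-tRNA synthetases and enzymes of amino acid and one-carbon metabolism. Of its 35 tested genes 26 were higher (74.3%, against 22% of all genes), 3 lower (8.57%, against 21.7%) and 6 not called. The median was 0.84. Among the higher genes, Nupr1, Cth and Gpt2 had both transgenic signals under the filter level of 88.2 and passed it through their clone signals. Nupr1, a stress-induced chromatin protein, gave 3.8 and 10.4 in transgenic cells and 862.3, 583.9 and 1013 in clone cells (4.93, adjusted p = 3.75e-06). Its transgenic signals lie far under the filter level, so the size depends on the pseudocount and was 6.76 with 1 in place of 20. Slc7a5, the large neutral amino acid transporter, gave 311.4 and 345.2 against 3987, 2162 and 3762 (3.21, adjusted p = 2.04e-05). Atf3, another stress-induced factor, differed by 2.68 and the cysteine-producing enzyme gene Cth by 2.27. Cth was at 11.1 and 34.7 in transgenic cells, also under the filter level, and its difference was 3.11 with a pseudocount of 1. The 3 lower genes, named after their values were seen, were the cystine transporter gene Slc7a11 (-1.45), Cebpg (-0.59) and the glutamine transporter gene Slc38a2 (-0.47). Slc7a11 averaged 50.4 in clone cells, under the filter level, and its difference was -1.86 with a pseudocount of 1. Without the second transgenic array 0 of the 35 were lower, and without the first 1 was.

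Genes of ER entry and folding were called in shares near those of all genes. Of 39 genes for entry into the ER, glycosylation and folding, 11 were higher and 9 lower (median 0.03), shares of 28.2% and 23.1% against 22% and 21.7%. Without the third clone array 9 were higher and 7 lower, and the share of all genes called higher was then 18.8%. The median was 0.04 without the first transgenic array. Rpn2, an oligosaccharyltransferase subunit, was higher (1150 ± 146 in transgenic against 2707 ± 288, 1.22, adjusted p = 0.000117), as was the BiP nucleotide exchange factor gene Sil1 (1.04). Serp1, which stabilises new membrane proteins and is a known XBP1 target, was lower (3807 ± 182 against 2298 ± 232, -0.73, adjusted p = 0.000828), as was the ER oxidase gene Ero1a (-0.69, adjusted p = 0.000451). Among 19 further ER degradation genes 8 were higher (42.1%) and 3 lower (15.8%, median 0.07), and without the second transgenic array 3 and 1. The largest differences were those of the ubiquitin-conjugating enzyme gene Ube2j1 (-0.86), Ubxn4 (0.77), Os9 (0.68) and Man1b1 (0.63). Of 14 genes of the eIF2 machinery 4 were higher (28.6%, against 22% of all genes) and 0 lower. The 4 were Eif2a (1.30), Impact (0.81), Eif2s3x (0.52) and Eif2s2 (0.26). Eif2a was read from an _x_at probe set and differed by 1.05 without _x_at and _s_at sets. It does not encode eIF2 alpha, whose gene, Eif2s1, had no probe set named here.

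**Figure D4:**
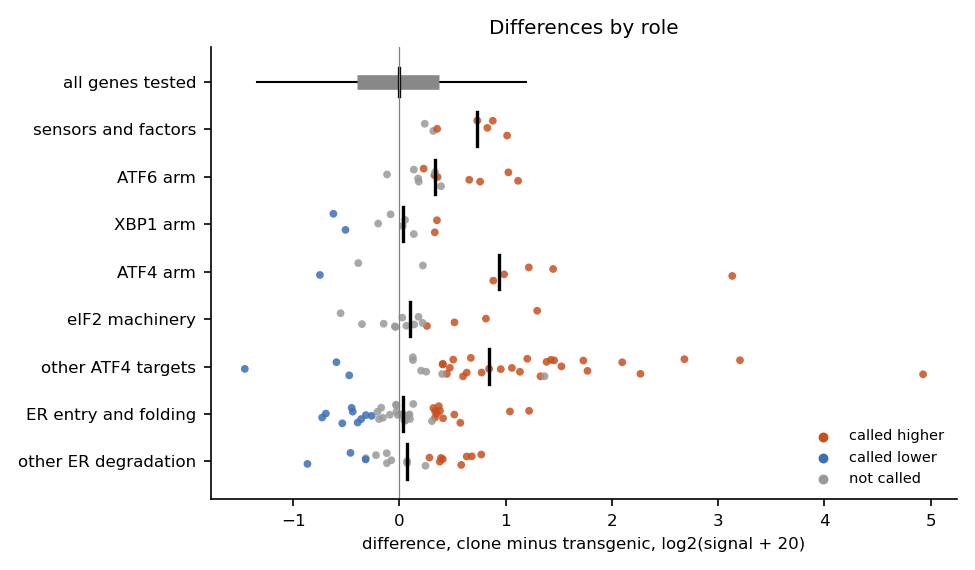
Differences on the log2(signal + 20) scale for each list, 1 point per gene, with a black bar at the list's median. The top row shows all genes tested, with the 25th to 75th percentile (-0.40 to 0.38) as a grey bar and the 5th to 95th percentile (-1.34 to 1.19) as a line. ATF4 targets lie mostly to the right, and the XBP1 arm and the ER lists lie on both sides of 0.

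Single clone arrays differed in these medians. Relative to the transgenic mean, the median of the ATF4 genes was 0.99, 0.68 and 1.13 on the 3 clone arrays, that of the ATF6 genes 0.39, 0.18 and 0.40, and that of the XBP1 genes 0.01, 0.13 and -0.15. Over all genes tested the same medians were between -0.01 and 0.02. The second clone array was thus the lowest clone array for the ATF4 and ATF6 medians and the highest for the XBP1 median. The 2 transgenic arrays differed by at most 0.07 in any of the 4 groups.

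**Figure D5:**
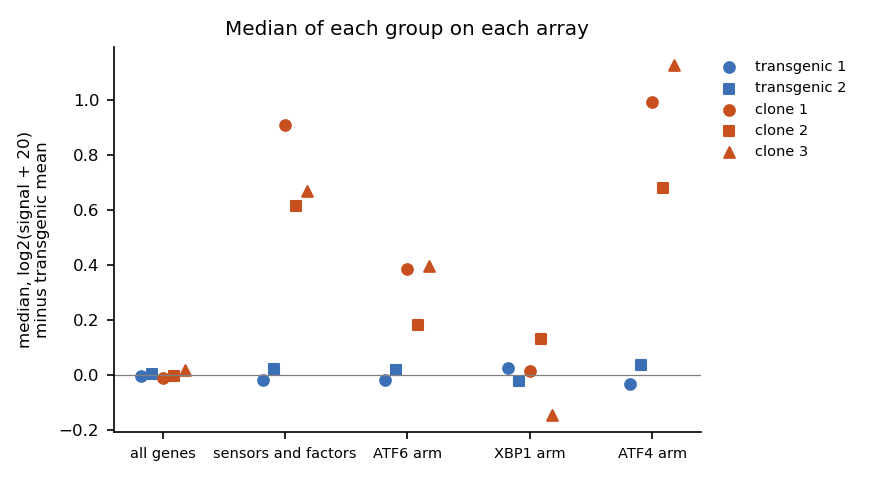
Median over the genes of each group of log2(signal + 20) minus the transgenic mean, 1 symbol per array. Clone arrays lie between 0.68 and 1.13 for the ATF4 arm, between 0.18 and 0.40 for the ATF6 arm and on both sides of 0 for the XBP1 arm.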

How the data were processed

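The authors deposited a linear intensity for each probe set. The submitters' processing notes name GCOS, Affymetrix's array software. Its version is not given in the sources used here. Each array's 2% trimmed mean is 500, so no further normalization was applied. The table holds no detection calls and no batch labels. Median signals were 132.3 to 141.9, and no array repeated another. Groups came from the sample titles.

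Of 45101 probe sets, those with exactly 1 symbol were used, kept at a mean signal of at least 88.2 (the 40th percentile of non-control probe sets), with the brightest taken per gene. On log2(signal + 20), clone was compared with transgenic in limma 3.58.1 (R 4.3.3, lmFit and eBayes with trend, two-sided), with 3 residual degrees of freedom. The groups are 3 vials of 1 clone and 2 mice, so p-values measure only the spread within those, and the number of arrays limits precision. The script was tested on simulated data over 12446 genes, of which only a small share was changed. There 51.6% of genes changed 2-fold and 88.2% changed 4-fold were recovered, and 3.58% of calls were false. In the real comparison 43.8% of genes were called, so these rates need not hold for it.

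The genes, their arms and the other lists were chosen with earlier results of these data known, and no list was tested. All 37 genes are named, along with up to 4 called genes of largest difference per further list, plus Slc7a11, Cebpg and Slc38a2, named after their values were seen. Psph, the last enzyme of serine synthesis, is named outside that rule. Of 190 listed genes 10 had no probe set named here. Promoter sequences are from RefSeq (GRCm38.p6), which held 32 of the 37 genes. Also tried were pseudocounts of 1 and 50, a floor of 50, quantile normalization, 2 other filters, 2 other choices of probe set, 2 other variance models, the replicate block and each array left out. Testing every probe set was added after the data were seen. Same-numbered samples share only a number. Figures used matplotlib 3.10.9.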

Additional observations from a re-analysis of the deposited data

How the results depend on the processing

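Of the 22 calls, 10 held in all 16 alternatives: 9 genes higher (Atf6, Xbp1, Atf4, Hsp90b1, Manf, Herpud1, Atf5, Ddit3, Psat1) and Dnajb9 lower. Phgdh and Chac1 could not be tested in 1 alternative each and held in the other 15. Leaving out a transgenic array leaves 1 mouse, assumed to vary like the clone arrays. Leave-one-out ranges were 12 to 19 for genes higher, 0.31 to 0.35 for the median of all 37, 0.50 to 0.79 for that of the sensors and factors, 3 to 8 for ATF6 genes higher, 0 to 1 for XBP1 genes higher, -0.11 to 0.15 for the XBP1 median (negative without the second transgenic, first clone or second clone array) and 0 to 2 for ATF4 genes lower. ATF6 genes higher numbered 4 without a filter and 3 without an intensity trend, and 1 was lower under quantile normalization. Of all genes, 14.6% were higher without a filter and 19.5% without a trend, beside 22% in the main fit. With the replicate block, 12 genes were higher, 3 in the ATF6, 0 in the XBP1 group, 2 ATF4 genes were lower and the median was 0.31. Those 12 are 32.4% of the 37, against 18.3% of all genes called higher with the block. Transgenic 1 minus 2 and clone 1 minus 2 correlated at -0.06 over genes, and vials and mice are not paired. The mean over probe sets gave 0.95 for the sensors and factors and -0.057 for the XBP1 median, which was -0.0013 under quantile normalization. Without _x_at and _s_at probe sets 1 XBP1 gene was lower. No ATF4 gene was lower under quantile normalization, without a filter, with the mean over probe sets or without a trend. Genes whose difference changed sign were, with the mean over probe sets, Canx (0.087), Pdia3 (-0.008), Pdia6 (-0.15), Dnajc3 (-0.77), Sel1l (-0.30) and Syvn1 (0.054), under quantile normalization Hspa5 (-0.0195) and Dnajc3 (-0.0013), and without _x_at and _s_at sets Canx (0.37). With an array left out, Dnajb11 ranged from -0.043 to 0.31, Dnajc3 from -0.043 to 0.15 and Sel1l from -0.12 to 0.19. Calr was not called under quantile normalization (0.09). The causes were not tested. The array number and missing detection calls limit the precision of dim genes such as Chac1 and Nupr1.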
